A study of Mus musculus with 4 samples.

Results

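The mitochondrial respiratory chain and ATP synthase were examined as a set of 90 genes, taken by a rule on names from the 31829 gene names on the array. The rule took nuclear genes whose symbol starts with Nduf and the letter a, b, c, s or v, with Uqcr, with Cox and a digit from 4 to 8, or with Atp5, together with Cyc1, Cycs and Sdha to Sdhd. Of the 90, 36 encode subunits of complex I, 4 of complex II, 8 of complex III, 18 of complex IV and 14 of ATP synthase, and Cycs encodes cytochrome c. The other 9 matched by name alone and are no subunits. They comprise Ndufaf1, Ndufaf2, Ndufaf3, Ndufaf4, Cox7a2l, Ndufa4l2, Atp5sl, Atp5s and Cox4nb. Ndufa4 was placed in complex IV, where its protein is now assigned. After a filter on dim probes 87 genes remained, 78 of them subunits. Cox8b, Cox8c and Cox7b2, forms of muscle or testis, did not pass it, and neither Cox8c nor Cox7b2 was well above background on any array.

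The mice were C57BL/6J males, 8 to 12 weeks old, for which the labels name no engineered allele and no drug. Fasted mice had no food for 24 h, and refed mice had the same 24 h fast followed by 2 h of access to food. The control group had thus also been fasted, and no group fed without a fast was compared here. RNA of individual livers was hybridised to 4 arrays, each with 1 fasted liver and a randomly chosen refed partner (n = 4 animals per condition). The fasted liver carried the red dye Cy5 on replicates 1 and 2 and the green dye Cy3 on replicates 3 and 4. Each value is a log2 ratio, the fasted liver divided by its refed partner, turned the same way for every array, and "passed" below means an adjusted p under 0.10 in limma, with the Benjamini-Hochberg method applied to all 19735 kept probes.

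The respiratory chain lies in the inner mitochondrial membrane. Complex I takes electrons from NADH and complex II from succinate, coenzyme Q carries them to complex III, and cytochrome c carries them on to complex IV, where oxygen is reduced. Complexes I, III and IV pump protons, and ATP synthase uses the returning protons to make ATP. In fasted liver, oxidation of fatty acids feeds the chain with electrons and the ATP is spent on gluconeogenesis, while the co-activator PGC-1α (gene Ppargc1a), induced by glucagon and cAMP, is known to act with NRF1, GABP and ERRα on the genes of the chain. Most subunits are encoded in the nucleus, and a small set in mitochondrial DNA.

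No gene of a nuclear subunit passed the test. Of the 78 measured subunit genes, 0 rose and 0 fell in fasted liver, whereas 4.95% of all 16066 genes tested rose (795 genes) and 6.27% fell (1007 genes). At an unadjusted p under 0.05 there was 1 subunit gene, against 22% of all genes. SAM, the test of the study, also gave 0 subunit genes. It passed more genes of the array than the main test, 2855 of 16066 against 1802. The mean ratios of the subunits lay between -0.20 for Ndufab1 and 0.20 for Atp5b, with a median of 0.03 beside a median of 0.00 over all genes. With median centring in place of loess the sign turned, and the medians of the complexes lay between -0.14 and -0.07 beside -0.06 over all genes. The median size of the difference, whatever its sign, was 0.07 for subunits and 0.11 for all genes, while the median standard errors were close, at 0.09 for both. The 95% interval lay within 1.5-fold in both directions for all 78 subunit genes and for 82.5% of all genes. It lay within 1.25-fold for 51 subunit genes (65.4%) and for 41.2% of all genes. With a term for the dye added to the model, Ndufa9 and Cox6a1 passed with higher values in fasted liver (adjusted p = 0.0947 and 0.0877), when 26.8% of all genes passed.

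**Figure D1:**
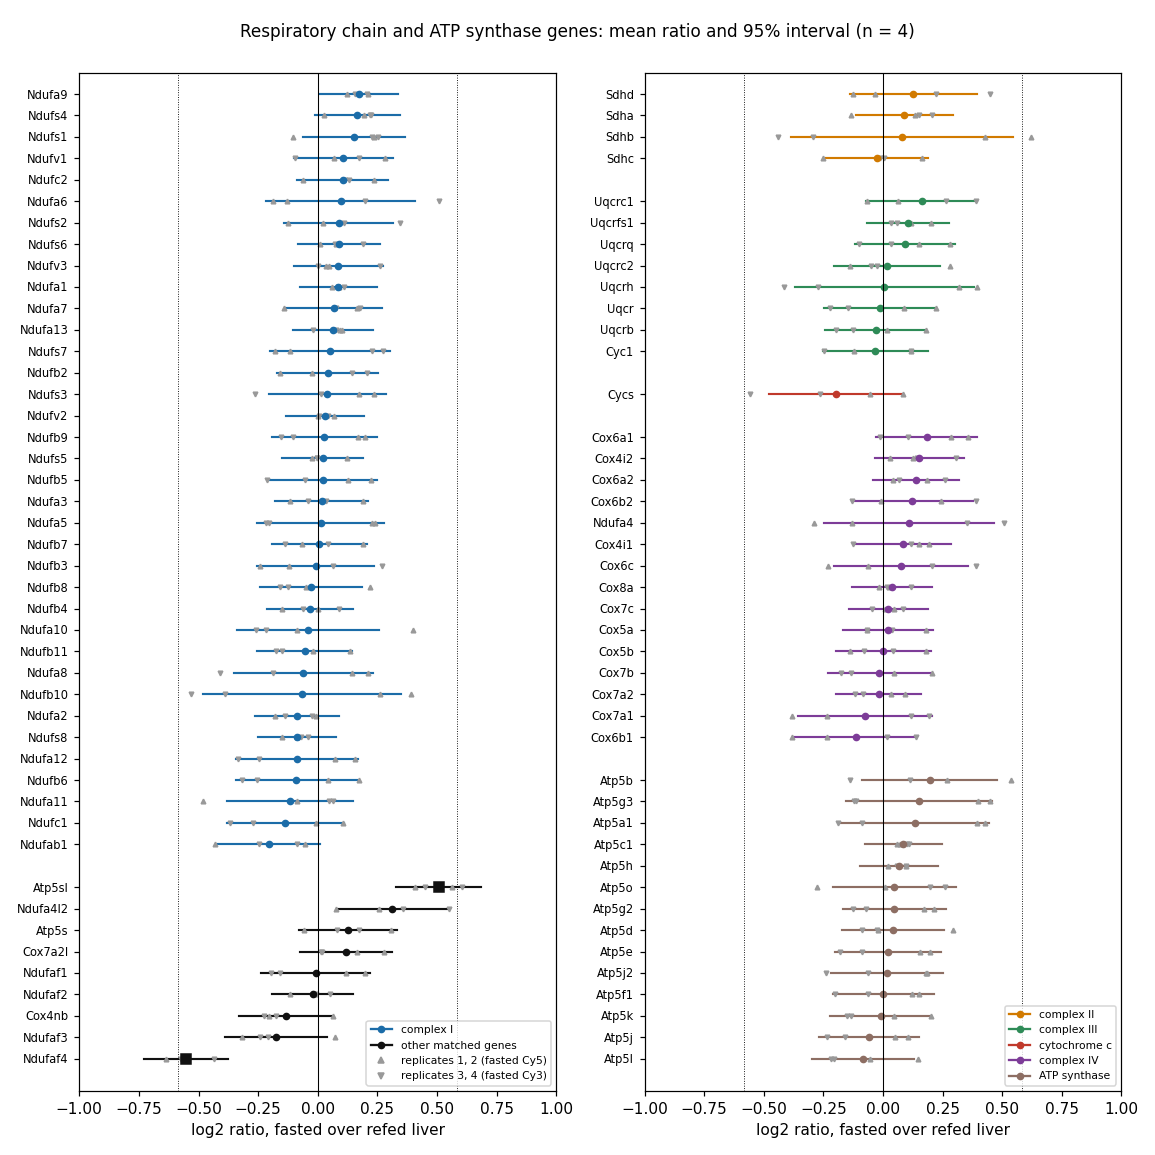
Mean log2 ratio of fasted over refed liver for the 87 measured genes by complex, with 95% intervals from limma as lines (n = 4 arrays) and the value of each array as a grey triangle (up, fasted in Cy5; down, fasted in Cy3). Squares mark genes that passed the test, dotted lines mark 1.5-fold. All subunits sit between -0.20 and 0.20, and the squares are Atp5sl and Ndufaf4.

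Of the 87 measured genes 2 passed, or 2.30% beside 11.2% of all genes, and both encode assembly factors of complex I, which help to build the enzyme and are not part of it. Ndufaf4 had log2 ratios of -0.64, -0.57, -0.44 and -0.57 on replicates 1 to 4. All 4 fasted livers were thus below their refed partners, and the mean was -0.55 ± 0.08 (SD, n = 4; adjusted p = 0.0155), or 0.682 of the refed level. A second probe of Ndufaf4 further along the same chromosome fell by 0.50 on the log2 scale (adjusted p = 0.0340). Atp5sl, now named Dmac2 for its part in building the distal membrane arm of complex I, had ratios of 0.41, 0.56, 0.45 and 0.61. It was higher in all 4 fasted livers, by 0.51 ± 0.09 (SD, n = 4; adjusted p = 0.0196), or 1.42-fold. Neither reached 1.5-fold, a size that 3.94% of all genes reached together with the test, 1.82% upwards and 2.12% downwards. The probes of both genes are given in the mm9 build, for Ndufaf4 at chr4:24829194-24829253 and chr4:24830284-24830343 and for Atp5sl at chr7:26410510-26410569. Neither gene passed when normexp was fitted to all spots, a setting under which 21 of 16076 genes passed and Ppargc1a did not (adjusted p = 0.559 for each of the 3).

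The promoters of both genes are shown because they are the members whose RNA changed. Each sequence runs 5′ to 3′ from 250 bases before to 50 bases after the RefSeq start in GRCm38.p6, and capitals mark a match to the NRF1 letters GCGCNTGCGC or their reverse complement.
Ndufaf4 promoter, chr4:24897833-24898132, plus strand: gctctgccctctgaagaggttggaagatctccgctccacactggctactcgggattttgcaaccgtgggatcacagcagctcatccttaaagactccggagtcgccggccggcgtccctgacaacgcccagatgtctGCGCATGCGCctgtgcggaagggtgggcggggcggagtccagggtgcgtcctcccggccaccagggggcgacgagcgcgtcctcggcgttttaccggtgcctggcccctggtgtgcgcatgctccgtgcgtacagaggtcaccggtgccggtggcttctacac
Atp5sl (Dmac2) promoter, chr7:25619164-25619463, plus strand: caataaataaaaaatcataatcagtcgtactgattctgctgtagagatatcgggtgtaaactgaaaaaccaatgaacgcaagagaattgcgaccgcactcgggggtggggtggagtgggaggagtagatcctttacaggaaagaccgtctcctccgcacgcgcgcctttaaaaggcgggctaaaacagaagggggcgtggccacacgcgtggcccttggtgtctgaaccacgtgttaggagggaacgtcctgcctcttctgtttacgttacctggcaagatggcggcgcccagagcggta
The window of Ndufaf4 holds the NRF1 letters once, with the first base at -113 from the start. Neither window of Atp5sl, which has 2 annotated starts, holds any of the motifs searched.

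Of the other name matches, Ndufa4l2, a paralogue of Ndufa4 known to be induced in hypoxia, had ratios of 0.08, 0.26, 0.36 and 0.55. All were above 0, with a mean of 0.31 ± 0.20 (SD, n = 4) that did not pass (adjusted p = 0.121). It passed when the local background was subtracted (adjusted p = 0.0810), with Agilent's processed signals (0.0958), with the dye term (0.0287), without replicate 1 (0.0963) and by SAM. The complex I assembly factors Ndufaf1 and Ndufaf2 had means of -0.01 and -0.02, and Ndufaf3 had -0.17 (adjusted p = 0.329). Cox7a2l, classed here as an assembly factor, had a mean of 0.12 on its brightest probe, and its other kept probes had 0.11 and 0.01. Atp5s, now Dmac2l, had 0.13, and Cox4nb, now Emc8 and a part of a membrane complex of the endoplasmic reticulum, had -0.13. The 95% interval of each of these 6 genes included 0.

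Complex I, the NADH dehydrogenase, had a median of 0.02 over its 36 genes. The 7 core genes, which carry the flavin and iron-sulphur clusters, had a median of 0.05 and the 29 accessory genes a median of 0.01. Ndufa9, an accessory subunit near the quinone site, had the highest mean, 0.17 ± 0.04 (SD, n = 4; adjusted p = 0.207), with ratios of 0.21, 0.12, 0.21 and 0.16. It was the 1 subunit gene with an unadjusted p under 0.05, and its interval ran from 0.01 to 0.34. Ndufs4, which is needed for a stable complex, and Ndufs1, the largest core iron-sulphur subunit, followed at 0.17 ± 0.10 and 0.15 ± 0.17 (SD, n = 4). Ndufs1 was at 0.23, 0.23 and 0.25 on replicates 2 to 4 but at -0.10 on replicate 1. The lowest means were those of Ndufab1, Ndufc1 and Ndufa11. Ndufab1, the acyl carrier protein of mitochondrial fatty acid synthesis as well as a subunit, had ratios of -0.43, -0.05, -0.25 and -0.09 and a mean of -0.20 (adjusted p = 0.254). Ndufc1 and Ndufa11, small membrane subunits, had means of -0.14 and -0.11, and Ndufa11 took its value mainly from replicate 1 at -0.48.

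Complex II, succinate dehydrogenase, is wholly encoded in the nucleus and also belongs to the TCA cycle. Its 4 genes had a median of 0.08. Sdha, the flavoprotein that oxidises succinate, had ratios of 0.14, -0.13, 0.20 and 0.15 and a mean of 0.09 ± 0.15 (SD, n = 4). The membrane anchors Sdhc and Sdhd had means of -0.02 and 0.13. Sdhb, the iron-sulphur subunit, had ratios of 0.62, 0.43, -0.29 and -0.44 on its brightest probe. Both arrays with the fasted liver in Cy5 were above 0 and both others below, so that the mean of 0.08 had an SD of 0.52, the widest of any subunit. A second probe of Sdhb had 0.13, 0.03, 0.19 and 0.08, above 0 in both orientations, with a mean of 0.11 ± 0.07 (SD, n = 4; adjusted p = 0.453). Over the brightest probes of the 4 genes the lowest adjusted p was 0.586 (Sdhd).

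Complex III, cytochrome c reductase, had a median of 0.01 over 8 genes. Uqcrc1, a core protein without a redox centre, was highest at 0.16 ± 0.20 (SD, n = 4; adjusted p = 0.402). Uqcrfs1, the Rieske iron-sulphur protein, had ratios of 0.12, 0.20, 0.04 and 0.06, all above 0, with a mean of 0.10 (adjusted p = 0.472). Cyc1, cytochrome c1, had -0.12, 0.12, 0.12 and -0.25, with no common direction and a mean of -0.03. The small subunits Uqcrq, Uqcr (now Uqcr11) and Uqcrb had means of 0.09, -0.01 and -0.03. Cycs, cytochrome c itself, had ratios of -0.05, 0.09, -0.27 and -0.56. Its mean of -0.20 ± 0.28 (SD, n = 4; adjusted p = 0.400) was within the spread of the arrays, and a second probe gave -0.18.

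Complex IV, cytochrome c oxidase, has subunits with tissue forms, and 15 of its 18 genes were measured with a median of 0.04. Among the forms that liver uses, Cox6a1 had ratios of 0.36, 0.29, 0.10 and -0.01 and a mean of 0.18 (adjusted p = 0.30). Cox4i1, Cox8a and Cox7a2 had means of 0.08, 0.04 and -0.02. The common subunit Cox6b1 was lowest at -0.11 ± 0.24 (SD, n = 4). The forms known from heart and skeletal muscle, Cox6a2 and Cox7a1, were well above background in all 8 livers, with means of 0.14 and -0.08. In the same livers 7 of 8 muscle marker genes were not well above background in any, and the other, Myh6, was in 3 fasted and 3 refed livers. The part of muscle tissue in these levels was not tested. Cox4i2, known from lung, and Cox6b2, known from testis, had means of 0.15 and 0.12. Cox8b, a muscle form, was well above background in 1 refed liver and in no fasted liver. No form of either kind passed, and the lowest adjusted p in the complex was 0.30.

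ATP synthase had a median of 0.04 over 14 genes, with 0.08 for the 5 genes of the catalytic F1 head and 0.02 for the 9 of the membrane part and stalk. Atp5b, the catalytic beta subunit, had ratios of 0.54, 0.27, 0.11 and -0.14. Of its 4 values 3 were above 0, and the mean was 0.20 ± 0.28 (SD, n = 4; adjusted p = 0.409). Atp5a1, the alpha subunit of the head, and Atp5g3, which encodes the proton-carrying c ring, followed at 0.14 ± 0.32 and 0.15 ± 0.31 (SD, n = 4). Atp5g2, another gene of the c ring, had a mean of 0.05, and Atp5g1 was not analysed here. The lowest were Atp5l and Atp5j, small subunits of the membrane part and stalk, at -0.08 and -0.06, and Atp5k was at -0.01.

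The order of fasted and refed signal differed between the 2 dye orientations for many of these genes. Each orientation holds other livers, so an effect of the dye and one of the liver pairs cannot be told apart. A dye effect below means the difference between the orientations. The median of the ATP synthase genes was 0.14 on the arrays with the fasted liver in Cy5 and -0.13 on those with it in Cy3. A dye effect passed an adjusted p of 0.10 for 12 of 78 subunit genes (15.4%), a share close to the 15.3% of all genes, and none of the 9 other matched genes had one. The dye effect was larger than the difference between fasted and refed liver for 52 subunit genes (66.7%), against 46.7% of all genes. Sdhb had means of 0.53 and -0.37 in the 2 orientations, Ndufb10, an accessory subunit of complex I, 0.33 and -0.46, and Uqcrh, the hinge protein of complex III, 0.36 and -0.34. On these probes the arrays separated by orientation and not by food. The second probe of Uqcrh did the same (dye term 0.32), and that of Sdhb did not (dye term -0.03 against 0.45). Ndufa4 and Cox7a1 ran the other way, with -0.21 and -0.31 where the fasted liver was in Cy5 and 0.43 and 0.16 where it was in Cy3. Adjacent probes of Atp5g2 (chr15:102493359-102493418 and chr15:102493299-102493358 in mm9) had dye terms of opposite sign, 0.15 and -0.33, and means of 0.05 and -0.02. Over the 24 genes with more than 1 kept probe, the means of the probes lay 0.06 apart in the median and 0.12 at most, and no gene had probes that differed past the test. One sign on all 4 arrays was seen for 14 of 78 subunit genes (17.9%), against 29.9% of all genes.

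**Figure D2:**
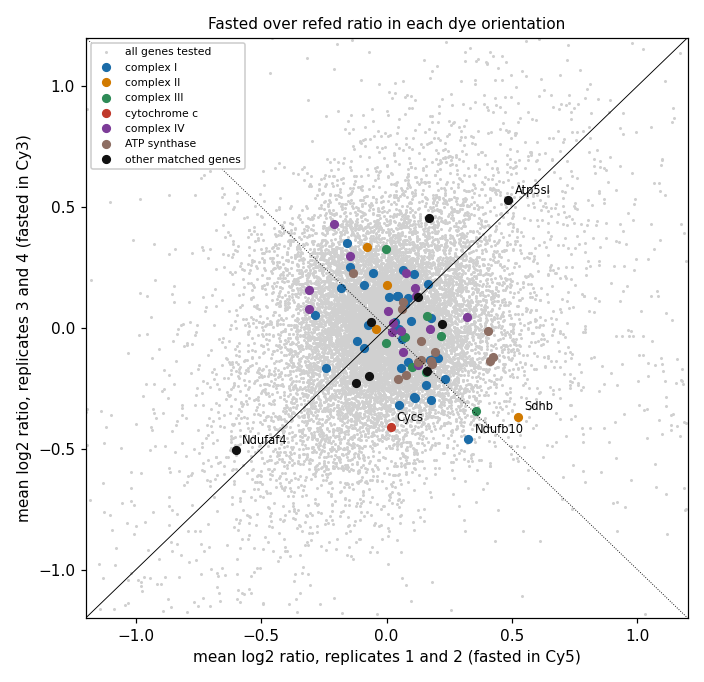
Mean log2 ratio of fasted over refed liver on the 2 arrays with the fasted liver in Cy5 (horizontal) and on the 2 with it in Cy3 (vertical), for all genes tested (grey; genes beyond the axes are not drawn) and the 87 measured genes (coloured by complex). A gene on the solid diagonal had the same ratio in both orientations, as Ndufaf4 and Atp5sl nearly did, and a gene on the dotted diagonal, near which Sdhb and Ndufb10 lie, had opposite ratios.

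Subunits that the name rule does not take were measured too. The array named 12 of the mitochondrially encoded subunits, and none passed, against 11.2% of all genes. Their median was 0.04. The 4 arrays gave 0.36, 0.12, 0.21 and 0.34 for ND5, a proton-pumping subunit of complex I, all above 0 (mean 0.26 ± 0.11, SD, n = 4; adjusted p = 0.113). ND5 passed with the dye term (adjusted p = 0.0515), as 26.8% of all genes did, and by SAM. ND4L, next furthest from 0, had a mean of 0.15, and the lowest was ND6 at -0.13. Among nuclear subunits listed under other names, Atp5md and Atp5mpl had means of 0.00 and 0.01, Uqcr10 of -0.05 and Ndufb1 of -0.11, and none of the 4 passed.

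The other genes of the pathway, taken from lists of the pathway's known parts, gave 6 genes that passed. The share was 5.13% of the assembly factors, 8.33% of the coenzyme Q genes and 14.3% of the regulators. It was 0 in the other lists, and 11.2% over all genes. With normexp on all spots none of the 6 passed (adjusted p from 0.411 to 0.559). Of the 39 measured assembly factors outside the name rule, 1 rose and 1 fell, against 11.2% of all genes in either direction. With the dye term 6 rose and 9 fell, when 26.8% of all genes passed. Sco2, which brings copper to complex IV, had ratios of 0.38, 0.43, 0.84 and 0.96. It was higher in all 4 fasted livers, by 0.65 ± 0.29 (SD, n = 4; adjusted p = 0.0346), but did not pass without replicate 3 (0.59, adjusted p = 0.143) or without replicate 4 (0.55, adjusted p = 0.104). Coa3, which stabilises the newly made COX1 protein of complex IV, had ratios of -0.57, -0.31, -0.49 and -0.54. It was lower in all 4 fasted livers, and its mean was -0.48 ± 0.12 (SD, n = 4; adjusted p = 0.0257). It did not pass without replicate 3 (-0.47, adjusted p = 0.119). Coa4, another assembly factor of complex IV, had the lowest mean of the list at -0.48, with 0.14 on replicate 1 and -0.96 on replicate 4, and did not pass (adjusted p = 0.210). It passed with the dye term (adjusted p = 0.0142), without replicate 1 (-0.69, adjusted p = 0.0760) and by SAM.

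Of 12 measured genes of coenzyme Q synthesis 1 rose and none fell, a share of 8.33% near the 11.2% of all genes. Coq8a, an atypical kinase that this synthesis requires, had ratios of 0.92, 0.50, 0.56 and 0.56. All 4 fasted livers were higher, by 0.64 ± 0.19 (SD, n = 4; adjusted p = 0.0199). Coq10b, a coenzyme Q binding protein, had the lowest mean, -0.31 (adjusted p = 0.127), and passed with the dye term (adjusted p = 0.0465), by SAM and with the mean over all kept probes (0.0988). Of 12 genes that bring electrons to the chain by other routes or handle them elsewhere, 0 passed. The 2 furthest from 0 were Aox1, a cytosolic aldehyde oxidase, at -0.34 ± 0.60 and Chdh, choline dehydrogenase, at 0.28 ± 0.45 (SD, n = 4). With the dye term, under which 26.8% of all genes passed, 6 of the 12 did, among them Aox1 (adjusted p = 0.0269) and Chdh (adjusted p = 0.0805). None of 6 measured genes for proton leak, ATP export and the inhibitor of ATP synthase passed. The uncoupling protein Ucp2 had a mean of 0.24 and the ADP/ATP carrier Slc25a4 one of 0.18, which passed with the dye term (adjusted p = 0.0909).

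The list for the TCA cycle held 16 genes, among them Pdha1, Pdhb and Dlat of pyruvate dehydrogenase, which feeds the cycle. None of the 16 passed, against 11.2% of all genes, and their median was 0.09. Fh1, fumarase, which acts on the product of complex II, had ratios of 1.11, 0.71, 0.44 and 0.07. All were above 0 but they spread widely, and the mean of 0.58 ± 0.44 (SD, n = 4) had an adjusted p of 0.102, just above the limit. It passed under 7 of the 18 other settings, among them Agilent's processed signals (adjusted p = 0.0691) and the authors' deposited ratios (adjusted p = 0.0945). Dlat, a subunit of pyruvate dehydrogenase, had a mean of 0.30 (adjusted p = 0.127). It passed with the dye term (adjusted p = 0.0433), with Agilent's processed signals (0.0712), with separate channels (0.0902) and by SAM. With the dye term 4 of the 16 genes passed, or 25%, near the 26.8% of all genes.

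**Figure D3:**
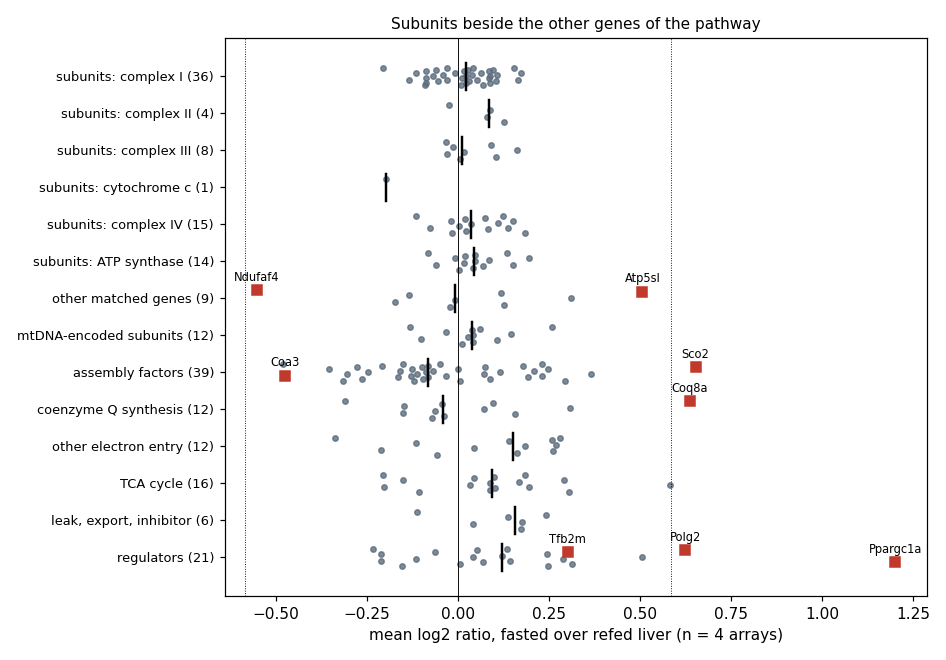
Mean log2 ratio of fasted over refed liver (n = 4 arrays) for each measured gene of the complexes and of the other pathway lists, with the number of genes in parentheses. Black bars are medians, red squares are genes that passed the test, and dotted lines mark 1.5-fold. The rows of subunits hold no red square, and Ppargc1a lies furthest from 0 at 1.20.

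Of 21 measured regulators of the respiratory genes, 3 rose and none fell, or 14.3% beside 11.2% of all genes (4.95% higher and 6.27% lower). Ppargc1a had ratios of 0.97, 1.33, 1.25 and 1.25. Every fasted liver was well above its refed partner, with a mean of 1.20 ± 0.16 (SD, n = 4; adjusted p = 0.00342). Polg2, the accessory subunit of the mitochondrial DNA polymerase, had 0.82, 0.70, 0.50 and 0.48 and a mean of 0.62 ± 0.16 (SD, n = 4; adjusted p = 0.0170). Tfb2m, a transcription factor of mitochondrial DNA, had 0.34, 0.43, 0.18 and 0.26, again all above 0. Its mean was 0.30 ± 0.11 (SD, n = 4; adjusted p = 0.0760), and it did not pass when any 1 of the 4 replicates was left out (adjusted p from 0.163 to 0.218), with median centring (0.379) or with local background subtraction (0.137). Nrf1, Gabpa and Esrra, partners of PGC-1α, and Tfam did not pass. Nrf1 had a mean of 0.12 ± 0.27, Gabpa one of 0.29 ± 0.23 and Esrra one of -0.23 ± 0.37 (SD, n = 4), and Tfam, the packaging factor of mitochondrial DNA, one of 0.07 ± 0.14 (SD, n = 4). Gabpa passed with the dye term (adjusted p = 0.0282) and with Agilent's processed signals (0.0645). With the dye term 7 of the 21 regulators passed, when 26.8% of all genes did. Nrf1, Gabpa, Esrra and Tfam were named after their values were seen.

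**Figure D4:**
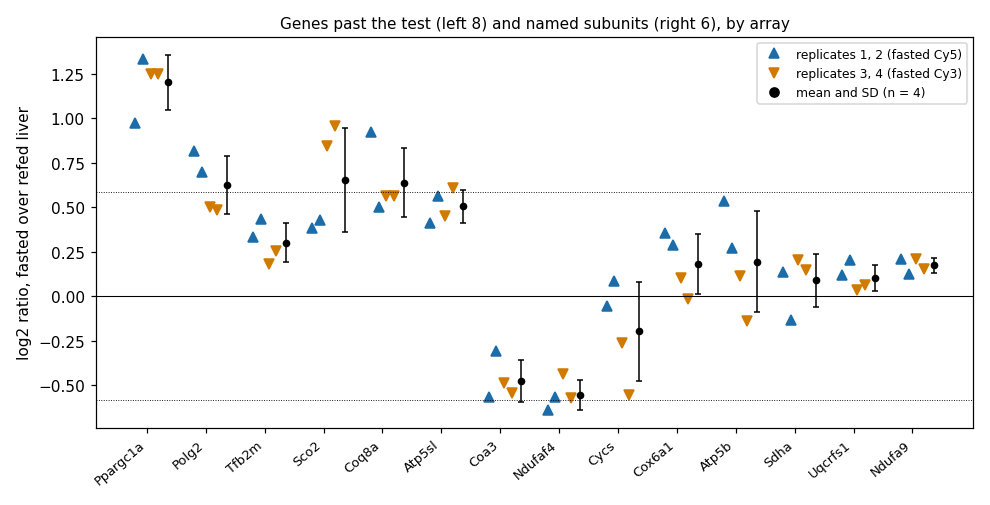
Log2 ratio of fasted over refed liver on each array (triangles, coloured by the dye of the fasted liver) with the mean and SD (black, n = 4). The 8 genes on the left passed the test and have one sign on every array, and the 6 subunit genes on the right, of which Cycs, Cox6a1, Atp5b and Sdha have values on both sides of 0, did not pass.

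Promoter sequences were available for 73 of the 90 genes. Because the study concerned CREB, the cAMP response element TGACGTCA was searched on both strands, and it was found for 5 genes (6.85%), against 2.03% of 27025 genes. Its core TGACG, which any full element also holds, was found for 35.6% against 23.0%. The NRF1 letters were found for 18 genes (24.7%) against 5.19%, the GABPA letters CCGGAAG for 17 (23.3%) against 9.93%, and the ERR letters TCAAGGTCA for 2 (2.74%) against 0.466%. No other motif searched is contained within another. The 27025 genes were neither limited to genes measured in liver nor matched to the members for base content. The 5 genes with the response element are shown with 20 bases on each side of it, which capitals mark.
Ndufb2, chr6:39592531-39592578, plus strand: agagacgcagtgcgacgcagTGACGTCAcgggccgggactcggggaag
Ndufa10, chr1:92473798-92473845, minus strand: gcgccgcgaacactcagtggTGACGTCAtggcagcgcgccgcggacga
Ndufa11, chr17:56717584-56717631, plus strand: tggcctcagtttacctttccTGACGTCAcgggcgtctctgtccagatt
Uqcrfs1, chr13:30545318-30545365, minus strand: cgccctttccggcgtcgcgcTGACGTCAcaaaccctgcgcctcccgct
Cycs, chr6:50566711-50566758, minus strand: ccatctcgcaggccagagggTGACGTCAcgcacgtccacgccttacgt
The element starts at -14 from the start of Ndufb2, at -67 in Ndufa10, at -158 in Ndufa11, at -29 in Uqcrfs1 and at -169 in Cycs. The RNA of these genes had mean log2 ratios of 0.04, -0.04, -0.11, 0.10 and -0.20 in the same order, and none passed. A match of letters is a description of the sequence and no evidence of binding in these livers. Binding of CREB, which the study mapped by ChIP-seq in fasted and refed livers, was not examined here.

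The NRF1 letters are shown for Sdha, where they occur 3 times in the window, and for Cox6a1, where they occur 2 times, again with 20 bases on each side.
Sdha at -98, chr13:74350309-74350358, minus strand: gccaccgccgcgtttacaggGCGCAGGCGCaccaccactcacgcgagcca
Sdha at -55, chr13:74350266-74350315, minus strand: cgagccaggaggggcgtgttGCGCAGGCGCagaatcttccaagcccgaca
Sdha at -10, chr13:74350221-74350270, minus strand: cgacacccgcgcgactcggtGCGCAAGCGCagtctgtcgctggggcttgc
Cox6a1 at -162, chr5:115349091-115349140, minus strand: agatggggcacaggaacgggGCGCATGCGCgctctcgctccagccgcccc
Cox6a1 at -117, chr5:115349046-115349095, minus strand: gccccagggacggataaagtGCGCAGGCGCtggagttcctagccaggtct
The 18 genes with the NRF1 letters had a median log2 ratio of 0.06 (from -0.55 for Ndufaf4 to 0.18 for Cox6a1), and the 53 measured genes without them a median of 0.02 (from -0.20 for Ndufab1 to 0.51 for Atp5sl).

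All 8 hepatocyte markers were well above background in every liver. The refed liver of replicate 3 carried transcripts of the exocrine pancreas, with a summed signal of 37548 over 12 acinar markers against at most 1517 in the other refed livers and 2243 in the fasted ones. On that array the median ratio of the markers was -3.43. Without replicate 3 the complexes had medians between 0.03 and 0.06. Blood markers (Hba-a1 among them) differed within pairs by medians of 1.42, -0.27, 1.80 and 0.19, and their part in the result was not tested. Whole liver was measured, so fewer cells of a type and less RNA per cell cannot be told apart, and a change common to most transcripts would be removed by the normalization. The 4 arrays limit the precision of every value.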

How the data were processed

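Livers of 4 fasted and 4 refed mice were hybridised in pairs to 4 two-colour arrays, with the dyes swapped on 2 of them and 200 ng of RNA per liver. The deposited scanner files hold raw intensity per spot and channel, with local backgrounds, from Agilent's Feature Extraction, and the authors also deposited log2 ratios normalized within arrays by loess in limma.

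Median intensities were analysed with limma 3.58.1 (R 4.3.3). Spots with a local background above 3 times the array's median (55 in all) were left out, a step chosen after the data had been seen. Normexp (offset 50) and loess within arrays followed, flagged spots were dropped and spots of a probe averaged. A probe was kept if well above background on all 4 arrays in at least 1 condition, which left 19735 of 39429 probes. Array spots had median intensities of 40 to 75 in red and 44 to 96 in green, over backgrounds of 20 to 35, and no spot was saturated. Ratios were expressed as fasted over refed and tested against 0 with lmFit and eBayes, two-sided and without a dye term. A dye effect was tested in a second model. Each gene was represented by its brightest kept probe. Names came from RefSeq accessions (26055 probes), symbols (3195) or synonyms (930) of GRCm38.p6, and 9249 probes kept the name in the file. Probe coordinates are those of the files (mm9), and promoters are from RefSeq.

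Named genes were the members past the test, the 3 highest and 3 lowest of each complex, tissue forms, name matches that are no subunits, regulators past the test and the 2 genes furthest from 0 in each pathway list. Coa3, which passed the test but falls outside this rule, was named after its values were seen. Also outside it are Ndufb10, Uqcrh and Ndufa4 with their dye effects, ND6, Tfb1m, Ppara, Ndufa11b and the subunits listed under other names. The members and lists were chosen with earlier results of these data known. The steps were tested on simulated data. Alternatives covered background correction, signal source, centring, filters, flags, the dye term, separate channels, SAM (the study's test), averaging of probes and leaving out each replicate.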

Additional observations from a re-analysis of the deposited data

Results flagged for a closer look

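Among 62 genes and 6 medians of gene sets scanned for an array far from the other 3, 3 genes were found, and chance alone gives about 1 in 20. For Ndufs1 the gap was 0.938 of the whole range, with replicate 1 at -0.10 and the others between 0.23 and 0.25. For Ndufs4 it was 0.853, with replicate 2 at 0.02 and the others between 0.19 and 0.22. For Coq8a it was 0.847, with replicate 1 at 0.92 and the others between 0.50 and 0.56.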

How the results depend on the processing

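The number of members higher in fasted liver (1 as reported) was 0 with normexp fitted to all spots, 2 with local background subtraction, with Agilent's processed signals and with SAM, and 4 with the dye term, and it ranged from 1 to 2 when a replicate was left out. The number lower (1) was 0 with normexp on all spots and 1 whichever replicate was left out. At 1.5-fold the number higher was 0 under every setting run, and the number lower was 0 except for 1 (Ndufaf4) with median centring, and 0 to 1 when a replicate was left out, the 1 coming without replicate 3. Centring each array on its median in place of loess moved the median of all genes to -0.06 and those of the members to -0.13, of complex I to -0.13, of complex II to -0.069, of complex III to -0.14, of complex IV to -0.12 and of ATP synthase to -0.11. The signs of these medians are thus not settled, and there each lies below the median of all genes. Without 1 replicate they ranged from -0.01 to 0.05 for the members, -0.02 to 0.04 for complex I, 0.036 to 0.083 for complex II, -0.06 to 0.08 for complex III, 0.03 to 0.05 for complex IV and -0.01 to 0.08 for ATP synthase. The cause of these shifts was not tested. The arrays pair livers at random, and each ratio keeps its pair. With the channels fitted separately and no replicate block, 1 member was higher and 1 lower, and the adjusted p was 0.0214 for Atp5sl and 0.0963 for Ndufaf4. Across single named genes and settings, 1068 values kept their side of the test, 17 lost it, 31 gained it and none that passed changed sign. Dim probes near background are compressed towards 0 by the offset.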

Other observations

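Ndufa11b, a gene named after Ndufa11 whose probe lies on chromosome 16, had ratios of -1.32, 0.05, -0.03 and -0.08, so that replicate 1 alone gave its mean of -0.34 (adjusted p = 0.469). Ndufa11 itself was also lowest on replicate 1. Tfb1m, a mitochondrial rRNA methyltransferase from the list of regulators, had ratios of 0.42, 0.10, -0.49 and -0.88, with the widest SD of that list at 0.59. Ppara, the nuclear receptor that drives fatty acid oxidation in fasting, had -0.10, 1.001, 0.31 and 0.82 and a mean of 0.51 that did not pass (adjusted p = 0.177).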
